A study of Mus musculus with 7 samples.

Results

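Desmin (Des), synemin (Synm), vimentin (Vim), nestin (Nes), the lamins A/C and B1 (Lmna and Lmnb1), the filamins A and C (Flna and Flnc) and plectin (Plec) were followed in mouse ventricles after constriction of the aorta. These 9 genes were chosen by symbol, out of 23847 gene rows in the deposited table, and each symbol had 1 row. All 9 passed the filter for testing, an FPKM (fragments scaled for transcript length and library depth) of at least 1 in at least 3 libraries, as did 11601 rows in all. The libraries were made from ventricular lysate of male mice labelled as 12 weeks old and operated on at 8 weeks. The 3 libraries labelled TAB came from mice whose aorta had been narrowed, under isoflurane, by tying a suture against a needle. The 4 Sham libraries came from mice with the same anaesthesia and exposure of the aorta but an untied suture. No strain, genotype or allele is given in the labels, and whether the libraries of a group stem from different animals is not stated. The p-values therefore rest on the variation among these libraries, which may be technical.

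Intermediate filaments are rope-like polymers of coiled-coil proteins that give cells tensile strength. In cardiomyocytes desmin filaments tie the Z-discs of neighbouring myofibrils to each other, to the cell membrane, to mitochondria and to the nucleus, synemin joins desmin or vimentin filaments as a partner, and vimentin is the filament protein of fibroblasts, endothelial cells and other mesenchymal cells. Nestin is best known from neural progenitors and also occurs in vascular and muscle cells. Lamins are the nuclear members of the same protein family and form the lamina under the inner nuclear membrane. Filamins are actin cross-linkers that work as stretch-sensitive scaffolds, filamin A in most cells and filamin C in striated muscle, where it sits at Z-discs and intercalated discs. Plectin is a large linker that anchors intermediate filaments to junctions, Z-discs, mitochondria and the nucleus.

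The sequences just upstream of Des, Vim, Flnc and Flna are printed because these 4 genes contrast the muscle-restricted and the widely expressed form of a filament protein and of a filamin. Each is the 250 bases before a RefSeq gene start on GRCm38.p6, the assembly also called mm10, read along the gene's own strand. Capitals mark the CCAAT box (the letters themselves), the TEAD core CATTCC and the TATA box TATAAA, on either strand.
Des, chr1:75360042-75360291, plus strand: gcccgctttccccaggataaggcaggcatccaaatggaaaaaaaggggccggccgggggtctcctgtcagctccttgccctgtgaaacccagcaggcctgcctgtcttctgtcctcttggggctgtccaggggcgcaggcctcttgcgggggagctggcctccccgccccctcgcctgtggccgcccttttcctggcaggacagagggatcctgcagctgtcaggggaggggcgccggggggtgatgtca
Vim, chr2:13574061-13574310, plus strand: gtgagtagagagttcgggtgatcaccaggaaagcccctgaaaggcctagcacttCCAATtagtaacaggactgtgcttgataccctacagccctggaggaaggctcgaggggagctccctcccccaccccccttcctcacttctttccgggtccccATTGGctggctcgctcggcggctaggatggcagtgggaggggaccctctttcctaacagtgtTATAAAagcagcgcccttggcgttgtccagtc
Flnc, chr6:29432903-29433152, plus strand: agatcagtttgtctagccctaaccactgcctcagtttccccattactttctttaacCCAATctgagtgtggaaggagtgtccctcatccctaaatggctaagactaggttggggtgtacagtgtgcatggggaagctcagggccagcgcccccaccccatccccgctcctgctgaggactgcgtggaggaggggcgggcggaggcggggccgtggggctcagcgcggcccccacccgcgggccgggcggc
Flna, chrX:74246535-74246784, minus strand: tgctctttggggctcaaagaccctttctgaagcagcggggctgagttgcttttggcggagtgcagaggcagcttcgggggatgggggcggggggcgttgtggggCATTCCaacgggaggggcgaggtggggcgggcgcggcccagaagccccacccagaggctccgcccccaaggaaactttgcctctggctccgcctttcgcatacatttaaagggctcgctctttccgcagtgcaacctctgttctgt
The TEAD core, bound by TEAD factors, lay 146 bases before the Flna start. It also lay 104 bases before a second RefSeq start of Flnc, at which the window was chr6:29433006-29433255. Of all 32851 upstream windows 12.6% held it. The Vim window held TATAAA 32 bases before the start, as 12.4% of all windows held it somewhere, and CCAAT in 2 places, at 196 and 94 bases before the start. The Flnc window printed held CCAAT 194 bases before the start, and 33.8% of all windows held it. None of these letters occurred in the Des window. The RefSeq starts behind the printed Des and Flnc windows lie in no GENCODE M21 transcript. GENCODE begins Des at 75360329 and Flnc at 29433256, downstream of these windows. It begins Vim at 13573927 and, on the minus strand, Flna at 74249820. The printed Vim and Flna windows thus lie inside the GENCODE genes and are upstream only of the RefSeq starts. Other starts would give other windows. The CArG box, the site of serum response factor, occurred in 1.47% of all windows and in none of the 9 windows kept for 7 of the 9 genes. No window was kept for Lmnb1 and Plec. The printed motifs do not overlap each other, and a match is a string of letters only.

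Cardiomyocyte transcripts dominated every library, with Myl2 (ventricular myosin light chain) at 22240 to 26060 FPKM in TAB and 22000 to 24150 FPKM in Sham. The summed FPKM of 12 cardiomyocyte markers was 70230 to 77760 in TAB and 71790 to 77590 in Sham. Of these 12 markers 6 were called lower in TAB by limma and 1 higher (Tnnc1, cardiac troponin C), with a median log2 fold change of -0.10. Low values moved in steps that put the depth at about 10800000 to 12200000 fragments per library. TAB 3 and Sham 2 stood apart in atrial transcripts. Myl7 was 164.5 FPKM in TAB 3, against 41.8 and 14.9 in TAB 1 and TAB 2, and 146 FPKM in Sham 2, against 17.65 to 69.2 in the other Sham libraries. Where leaving out both ends the call of one of the 9 genes, that is given with the gene. In bulk tissue, fewer cells of a type and less RNA per cell cannot be told apart.

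Of the 9 genes 6 rose in TAB and none fell. Des, Vim, Nes, Lmna, Flna and Flnc were called higher in TAB by limma at an adjusted p under 0.05, while Synm, Lmnb1 and Plec were not called. The background was high, since 13.3% of the 11601 tested rows were called higher, 7.05% lower and 20.3% either way. These shares are also the background for the counts of every partner and marker list. The 1542 higher and 818 lower calls became 1126 and 1190 after median-of-ratios rescaling and 1045 and 1225 after quantile normalization, and 5 of the 9 genes were called under each. Without TAB 1 only Des, Vim and Lmna, 3 of the 9, were called. All 9 log2 fold changes lay above 0, as did those of 61.4% of all tested rows. In 8 of the 9 genes every TAB library lay above every Sham library, which held for 19.9% of all tested rows (31.1% were without overlap in either direction), and Plec was the exception. The median log2 fold change of the 9 genes was 0.28, and that of all tested rows was 0.05. Log2 fold changes throughout compare log2(FPKM + 1) of TAB with that of Sham and carry a standard error (SE); the added 1 understates the change of low genes.

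**Figure D1:**
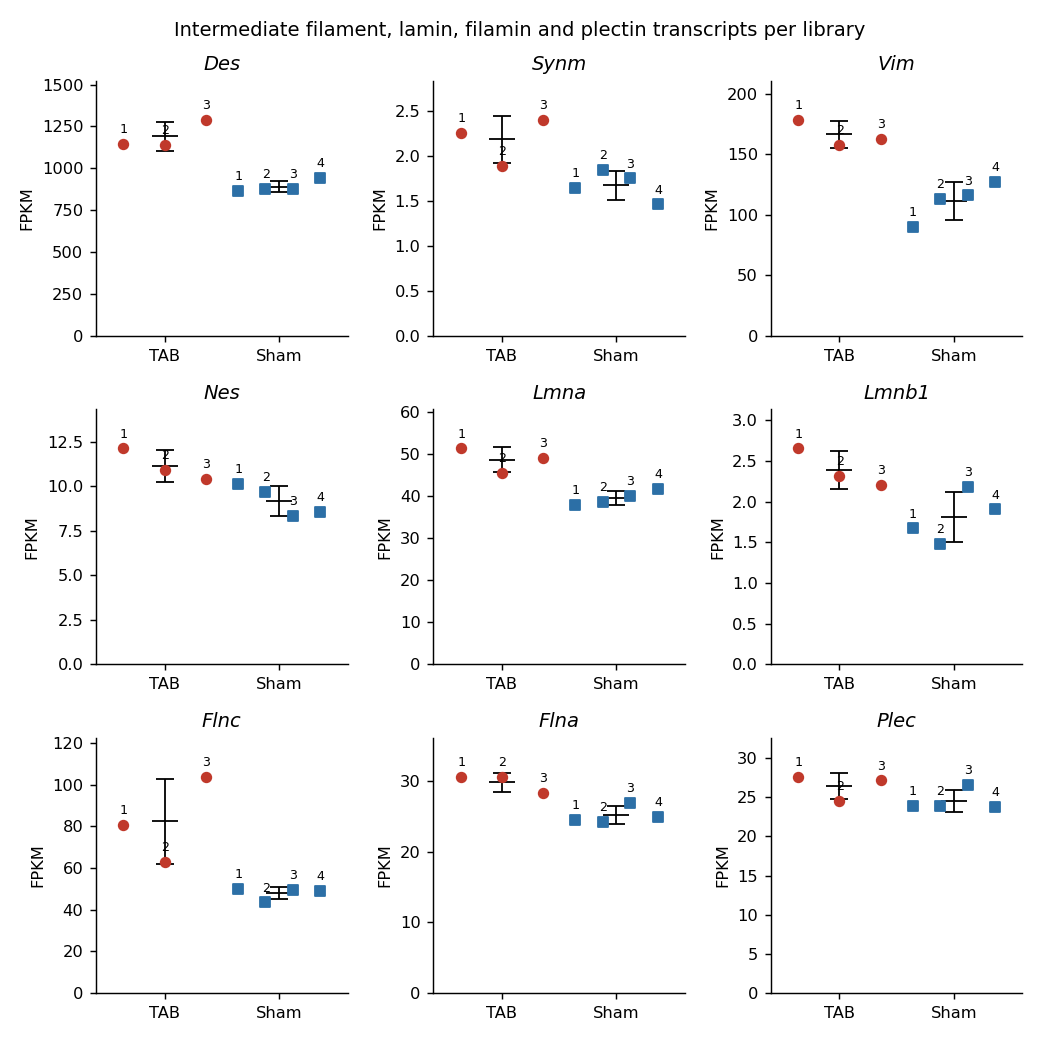
FPKM of each gene by library, on axes that start at 0, with TAB libraries as red circles and Sham libraries as blue squares, each numbered by its replicate. Black bars give the mean and 1 SD (n = 3 TAB, n = 4 Sham), and Plec is the gene whose groups overlap, with a TAB library at 24.5 and a Sham library at 26.6.

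FPKM is normalized for transcript length, so the genes can be ranked by level. In TAB the order was Des, Vim, Flnc, Lmna, Flna, Plec, Nes, Lmnb1 and Synm, and the same order held in Sham. Des stood far above the rest, 7.16 times the level of Vim in TAB and 7.98 times in Sham. It ranked 68th by mean FPKM among all rows of the table, while Synm ranked 10242nd. Lmnb1 and Synm could not be separated by their libraries in either group, and Flna and Plec could not be separated in Sham. Flna lay above Plec in each TAB library, at 28.3 to 30.6 against 24.5 to 27.6 FPKM.

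Des, at chr1:75360344-75367715 (mm10 positions, here and below, those of the table counted from 1), was 1144, 1140 and 1289 FPKM in TAB 1 to 3. The 4 Sham libraries held 867, 876, 879 and 943 FPKM. The groups were 197 FPKM apart at their nearest libraries, and Sham 4 was the highest Sham library. Des averaged 1191 ± 84.5 FPKM in TAB (SD, n = 3) and 891 ± 34.9 FPKM in Sham (SD, n = 4), 33.7% higher in TAB. The log2 fold change was 0.42 ± 0.05 SE (limma adjusted p = 0.000541). No other of the 9 genes had a smaller adjusted p, and the call of Des held in all 18 alternative fits, with log2 fold changes of 0.34 to 0.45.

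Synm, at chr7:67730161-67759742, was among the lowest of the 9 genes, at 2.26, 1.895 and 2.40 FPKM in TAB 1 to 3. In Sham 1 to 4 it was 1.645, 1.84, 1.75 and 1.46 FPKM. The lowest TAB library was only 0.0519 FPKM above the highest Sham library. Synm did not pass the threshold, with a log2 fold change of 0.25 ± 0.09 SE and a 95% interval of 0.05 to 0.45 (limma adjusted p = 0.0756). Without TAB 2, the lowest TAB library, it was called (0.32, adjusted p = 0.0485). At the estimated depth these values stand for roughly 137 to 222 fragments on a transcript of 7818 bases. Synm lies inside the opposite-strand gene Ttc23, which was 4.18 ± 0.482 FPKM in TAB and 4.84 ± 0.6065 FPKM in Sham, and whether reads were assigned by strand is not given in the sources used here. The share of Synm in the summed Synm and Des FPKM overlapped between the groups, at 0.183% ± 0.0159 in TAB (SD, n = 3) and 0.188% ± 0.0238 in Sham (SD, n = 4).

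Vim, at chr2:13574311-13582826, was 178, 158 and 163 FPKM in TAB 1 to 3. In Sham 1 to 4 it was 90.2, 113, 116 and 127 FPKM, with Sham 1 below the others. The groups lay 30.3 FPKM apart, and the means were 166 ± 10.7 FPKM in TAB (SD, n = 3) and 112 ± 15.6 FPKM in Sham (SD, n = 4). The log2 fold change of 0.58 ± 0.11 SE (limma adjusted p = 0.00674) placed Vim above all but 2.20% of tested rows. The call ended without both Sham 2 and TAB 3 (0.60, adjusted p = 0.0671). Vim made up 12.3% ± 1.13 of the summed Vim and Des FPKM in TAB (SD, n = 3) and 11.1% ± 1.14 in Sham (SD, n = 4). Nes made up 6.28% ± 0.2455 of the summed Nes and Vim FPKM in TAB (SD, n = 3) and 7.76% ± 1.70 in Sham (SD, n = 4), and these libraries overlapped too. The share of Vim overlapped between the groups, at 11.2% to 13.5% in TAB and 9.42% to 11.9% in Sham.

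Markers of cell types that carry vimentin were in part called higher and in part not called, where 13.3% of all tested rows were called higher. Fibroblast markers were called higher in 8 of 12 and lower in 0, and their summed FPKM was 1044 to 1283 in TAB against 861 to 980 in Sham. Endothelial markers were called higher in 6 of 12 and lower in 0, with overlapping sums of 1337 to 1572 in TAB and 1386 to 1928 in Sham, in which Fabp4 (a lipid carrier of capillaries) weighed most. Smooth muscle and pericyte markers were called higher in 6 of 12 and lower in 1 (Abcc9, which cardiomyocytes also express), with sums of 385 to 429 in TAB and 380 to 387 in Sham. Of 12 macrophage markers 11 were tested and 4 called higher (Cd68, Csf1r, C1qc and Tyrobp), 0 lower, with sums of 287 to 357 in TAB and 261 to 289 in Sham. The calls of Cd68 and C1qc each ended in 5 of 7 fits that left out 1 library (adjusted p up to 0.129 and 0.157): for Cd68 without TAB 1, TAB 3, Sham 1, Sham 3 or Sham 4, and for C1qc without TAB 1, TAB 3, Sham 1, Sham 2 or Sham 3. The call of Csf1r ended without TAB 1 (adjusted p = 0.0513). Among the 3 most abundant markers of each of these lists, Dcn and Cdh5 were called higher and Abcc9 lower. Gsn, Dpt, Fabp4, Pecam1, Rgs5, Acta2, Lyz2, C1qa and C1qb were not called. The calls of Dcn and Cdh5 ended without TAB 1 (limma adjusted p = 0.0586 and 0.058). Of 10 lymphocyte markers 9 had a row, and these 9 stayed under the filter with no value above 1.47 FPKM, and of 8 mesothelial markers 1 was tested and not called, with Upk1b at 0 in every library. None of the fibroblast, endothelial, smooth muscle and macrophage lists had a marker at 0 in every library. The part of these cells in the rise of Vim, and in those of Lmna and Flna, which many cell types express, was not tested.

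Nes, at chr3:87971093-87980451, was 12.1, 10.9 and 10.4 FPKM in TAB 1 to 3. Across Sham 1 to 4 it was 10.1, 9.69, 8.36 and 8.58 FPKM. TAB 3 and Sham 1 lay 0.273 FPKM apart, so the groups were close to touching. Means were 11.2 ± 0.888 FPKM in TAB (SD, n = 3) and 9.19 ± 0.856 FPKM in Sham (SD, n = 4), with a log2 fold change of 0.25 ± 0.08 SE (limma adjusted p = 0.0436). The call of Nes was the least steady of the 6. It ended without TAB 1, TAB 2, Sham 2, Sham 3 or Sham 4 (adjusted p from 0.0533 to 0.169) and under both rescalings (0.0738 with median-of-ratios, 0.0949 with quantile normalization). Without both Sham 2 and TAB 3 its adjusted p was 0.0617, and in all it ended in 12 of 18 alternative fits. Of 10 Schwann cell and neural markers 2 were tested and 0 called. The summed FPKM of the list was 5.015 to 5.68 in TAB and 4.80 to 5.89 in Sham, and Th was at 0 in every library.

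The other cytoplasmic intermediate filament genes that were looked up, only a part of the family, were low. Of 14 further genes of the family, among them keratins, neurofilaments, Gfap and the lamin gene Lmnb2, only Lmnb2 passed the filter. It averaged 2.815 ± 0.113 FPKM in TAB and 2.19 ± 0.471 FPKM in Sham and was not called (log2 fold change 0.27 ± 0.11 SE, limma adjusted p = 0.123). Krt18, the epithelial keratin, was 0.533 ± 0.376 FPKM in TAB and 0.246 ± 0.126 FPKM in Sham, and Krt19 stayed under 0.19 FPKM in each library. Krt80, the most abundant after Lmnb2, was 0.884 to 1.43 FPKM in TAB and 0.482 to 0.831 FPKM in Sham, and was not tested. The summed FPKM of the 14 genes, Lmnb2 and Krt80 included, was 5.14 to 5.63 in TAB and 3.40 to 4.32 in Sham.

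Both lamin genes had higher means in TAB, and 1 was called. Lmna, which encodes lamins A and C at chr3:88481149-88503332, was 51.3, 45.6 and 49.1 FPKM in TAB 1 to 3. The Sham libraries, 1 to 4, held 37.9, 38.6, 40.1 and 41.7 FPKM. The groups lay 3.86 FPKM apart, and the spread was small in both, 5.94% of the mean in TAB and 4.31% in Sham. The log2 fold change was 0.29 ± 0.05 SE (limma adjusted p = 0.00439), from means of 48.7 ± 2.89 FPKM in TAB (SD, n = 3) and 39.6 ± 1.71 FPKM in Sham (SD, n = 4). This call held in all 18 alternative fits (0.24 to 0.34). The gene-level value does not separate lamin A from lamin C.

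Lmnb1, at chr18:56707813-56753424, encodes the permanently farnesylated lamin B1 and is known to be lost in senescent cells. It was 2.65, 2.32 and 2.21 FPKM in TAB 1 to 3. Sham 1 to 4 had 1.67, 1.48, 2.185 and 1.905 FPKM. The highest Sham library, Sham 3, lay 0.0227 FPKM under the lowest TAB library. Lmnb1 was not called (log2 fold change 0.28 ± 0.10 SE, 95% interval 0.05 to 0.50, limma adjusted p = 0.0775), but was called without Sham 3 (0.34, adjusted p = 0.0421) and with array weights (0.31, adjusted p = 0.0492). Its values stand for roughly 47 to 87 fragments, so counting alone gives an error of about 14.6% at the lowest and 10.7% at the highest value. Of 12 proliferation markers 5 were tested, of which Top2a, Birc5 and Ccna2 were called higher, Cenpf was called lower and Mki67 was not called. Top2a was 1.21 to 2.25 FPKM in TAB and 0.526 to 0.884 in Sham, and Birc5 was 1.17 to 2.00 and 0.551 to 0.881. Both passed the filter only through TAB, the group in which they were higher, so their calls carry little weight. The summed FPKM of the 12 markers was 10.8 to 16.0 in TAB and 9.005 to 12.25 in Sham, and their part in the values of Lmnb1 was not tested. Lmnb1 made up 4.685% ± 0.334 of the summed Lmnb1 and Lmna FPKM in TAB (SD, n = 3) and 4.36% ± 0.611 in Sham (SD, n = 4), with overlapping libraries.

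Genes that process lamins or sit with them in the nuclear envelope showed no common direction. Of 20 measured members 2 were called higher, 2 lower and 16 were not called, with a median log2 fold change of 0.01. Tmem43, an inner nuclear membrane protein, averaged 13.35 ± 0.220 FPKM in TAB and 10.04 ± 0.6305 FPKM in Sham (log2 fold change 0.38 ± 0.06 SE, limma adjusted p = 0.00216). Rce1, the protease that trims farnesylated proteins, was 0.29 ± 0.08 SE higher. Tor1aip1, a lamina-associated membrane protein, fell by 0.19 ± 0.05 SE, and Sun2, which couples the lamina to the cytoskeleton, fell by 0.15 ± 0.05 SE. The calls of Rce1, Tor1aip1 and Sun2 each ended without any of 4 or more single libraries (adjusted p up to 0.119). Emd (emerin), Zmpste24 (the protease that completes lamin A) and Syne1 (nesprin 1) were not called, at -0.04 to 0.02.

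Flnc, at chr6:29433153-29461888, had the largest log2 fold change of the 9 genes. It was 80.7, 62.7 and 104 FPKM in TAB 1 to 3. Sham 1 to 4 were at 49.8, 43.5, 49.4 and 49.1 FPKM. All TAB libraries lay at least 12.9 FPKM above all Sham libraries, but they differed 1.655-fold among themselves, the widest spread in TAB of the 9 genes. The means were 82.4 ± 20.6 FPKM in TAB (SD, n = 3) and 47.9 ± 3.00 FPKM in Sham (SD, n = 4). The log2 fold change was 0.74 ± 0.16 SE (95% interval 0.38 to 1.11, limma adjusted p = 0.0165), and 0.983% of tested rows had a larger one. The call ended without TAB 1 (0.74, adjusted p = 0.0630). Atrial markers summed to 949 to 2490 FPKM in TAB and 224 to 742 FPKM in Sham. Most of this was Nppa (also a gene of the stressed ventricle), with a mean of 1351 of 1487 FPKM in TAB and 251 of 378 FPKM in Sham. Nppa was the 1 of 4 tested that was called higher, a call that ended without any single library other than Sham 2 (adjusted p from 0.0652 to 0.0871). Sln, Myl7 and Myl4 were not called, at log2 fold changes of 0.04, 0.01 and -0.21. TAB 3, the library highest in Flnc, was rich in atrial transcripts, and so was Sham 2, the Sham library lowest in Flnc. Without both of these libraries Flnc was still called (0.52, adjusted p = 0.0127).

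Flna, at chrX:74223461-74246534, changed by less. It was 30.55, 30.6 and 28.3 FPKM in TAB 1 to 3. Sham 1 to 4 held 24.5, 24.2, 27.0 and 24.98 FPKM. TAB 3 was the lowest TAB library for Flna and the highest for Flnc. Flna averaged 29.8 ± 1.32 FPKM in TAB (SD, n = 3) and 25.2 ± 1.24 FPKM in Sham (SD, n = 4), with a log2 fold change of 0.24 ± 0.05 SE (limma adjusted p = 0.0127). This call ended without TAB 1 (0.22, adjusted p = 0.0566).

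Within each TAB library Flna formed a smaller part of both filamins than in any Sham library, a ratio that a single scaling factor per library does not alter and for which no test was made. Flna made up 27.45%, 32.8% and 21.4% of the summed Flna and Flnc FPKM in TAB 1 to 3. In Sham 1 to 4 it made up 33.0%, 35.8%, 35.3% and 33.7%. TAB 2 lay just under Sham 1, so the groups barely separated. The difference of the mean shares, TAB minus Sham, was -7.23 percentage points, and it was -4.33 without TAB 3 and -10.0 without TAB 2.

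**Figure D2:**
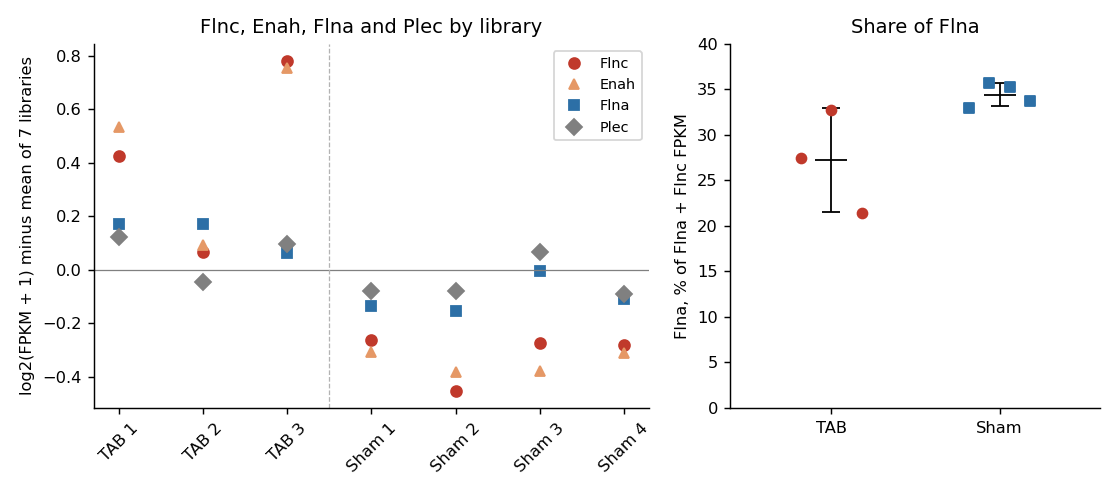
Left, log2(FPKM + 1) of 4 genes in each library after subtracting that gene's mean over the 7 libraries; right, Flna as a percentage of summed Flna and Flnc FPKM, with mean and 1 SD (n = 3 TAB, n = 4 Sham). Flnc and Enah share the order TAB 3, TAB 1, TAB 2, which Flna does not follow. Enah was chosen for its likeness to Flnc over these libraries. The Flna share runs from 21.4% to 32.8% in TAB and from 33.0% to 35.8% in Sham.

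Partners of filamin went both ways. Of 19 genes of the list 17 were tested, 5 called higher, 3 lower and 9 not called, with a median log2 fold change of 0.11. Myot (myotilin, a Z-disc protein that binds filamin C) was 66.45 ± 7.50 FPKM in TAB and 34.45 ± 2.15 FPKM in Sham (0.92 ± 0.08 SE, limma adjusted p = 7.37e-05). Xirp2, a Xin repeat protein of intercalated discs, was 243 ± 79.5 FPKM in TAB and 85.1 ± 3.60 FPKM in Sham (1.45 ± 0.22 SE, adjusted p = 0.00755). Fhl1, a LIM domain protein of the sarcomere, rose by 0.83 ± 0.13 SE, Myoz2 (calsarcin 1) by 0.33 ± 0.04 SE, and Rflnb (refilin B, listed under its older symbol) by 0.37 ± 0.10 SE. Cmya5 (myospryn), a scaffold that also binds desmin, was 84.2 ± 2.63 FPKM in TAB and 109 ± 6.70 FPKM in Sham (-0.37 ± 0.05 SE, adjusted p = 0.00106). Fblim1 (migfilin) fell by 0.17 ± 0.04 SE. Asb2, the ubiquitin ligase subunit that targets filamins for breakdown, fell by 0.14 ± 0.04 SE, a call that ended without any single library other than Sham 3 (adjusted p from 0.0604 to 0.149). The call of Fblim1 ended without TAB 3 (adjusted p = 0.0668), and that of Rflnb without TAB 1 or TAB 2 (0.0823 and 0.0623).

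Plec, at chr15:76170974-76231378, was the gene of the 9 that moved least. It was 27.6, 24.5 and 27.2 FPKM in TAB 1 to 3. In Sham 1 to 4 it was 23.9, 23.9, 26.6 and 23.7 FPKM. TAB 2 fell among the Sham libraries and Sham 3 among the TAB libraries. The means were 26.4 ± 1.68 FPKM in TAB (SD, n = 3) and 24.5 ± 1.36 FPKM in Sham (SD, n = 4). The log2 fold change was 0.10 ± 0.06 SE with a 95% interval of -0.03 to 0.24 (limma adjusted p = 0.266), so a rise above 0.24 is outside the interval. Plec has 22 annotated transcripts in GENCODE M21, many with their own first exon, and a change between them would not show in a gene-level value.

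Of the other plakins, relatives of plectin, few were tested and none of these was called higher, where 13.3% of all tested rows were. Of 6 genes 4 were tested, 0 called higher, 2 lower and 2 not called, with a median log2 fold change of -0.15. Dsp (desmoplakin), which anchors desmin at the desmosomes of intercalated discs, was 159 ± 3.29 FPKM in TAB and 176 ± 8.69 FPKM in Sham (-0.14 ± 0.05 SE, limma adjusted p = 0.0494). Ppl (periplakin) was 1.33 ± 0.370 FPKM in TAB and 2.00 ± 0.257 FPKM in Sham (-0.37 ± 0.12 SE, adjusted p = 0.0428). Macf1 and Dst, both linkers of actin and microtubules, were not called, at -0.15 ± 0.05 SE (adjusted p = 0.0647) and 0.13 ± 0.05 SE (adjusted p = 0.0989). Macf1 was called lower with median-of-ratios rescaling (-0.19, limma adjusted p = 0.0247) and with quantile normalization (-0.17, adjusted p = 0.0327). The calls of Dsp and Ppl each ended without any of 6 single libraries (adjusted p from 0.0504 to 0.154).

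Desmosomal and costameric anchors of the filaments were split. Of 19 genes, which include Dsp, 18 were tested, 4 called higher, 5 lower and 9 not called, with a median log2 fold change of -0.04. Pkp2 (plakophilin 2) was 68.5 ± 2.41 FPKM in TAB and 56.3 ± 0.948 FPKM in Sham (0.28 ± 0.04 SE, limma adjusted p = 0.00161). Tln1 (talin 1) rose by 0.30 ± 0.05 SE, Actn2 (the Z-disc alpha-actinin) by 0.25 ± 0.05 SE and Sntb1 (a syntrophin) by 0.64 ± 0.13 SE. Beside Dsp, the 4 that fell were Nebl (a Z-disc protein that binds desmin, by 0.30 ± 0.07 SE), Dsg2 (a desmosomal cadherin, by 0.37 ± 0.11 SE), Ank2 (by 0.20 ± 0.06 SE) and Ank3 (by 0.21 ± 0.06 SE). The calls of Dsg2, Ank2 and Ank3 ended without any of 4 or more single libraries (adjusted p from 0.0505 to 0.112), and that of Nebl without both Sham 2 and TAB 3 (0.0923). Vcl (vinculin) and Jup (plakoglobin) were not called.

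Several small heat shock proteins, a family whose members bind desmin or filamin C, rose. Of 12 chaperones 5 were called higher, 0 lower and 7 not called, with a median log2 fold change of 0.28. Hspb7, which binds filamin C in mouse heart, was 1506 ± 79.0 FPKM in TAB and 962 ± 68.7 FPKM in Sham (0.65 ± 0.06 SE, limma adjusted p = 0.000125). Hspb6 was 1213 ± 26.9 FPKM in TAB and 757 ± 68.7 FPKM in Sham (0.68 ± 0.06 SE, adjusted p = 0.000138). Cryab (alpha B-crystallin), the chaperone best known for desmin, was 1903 ± 101 FPKM in TAB and 1587 ± 49.65 FPKM in Sham (0.26 ± 0.04 SE, adjusted p = 0.00277). Hspb8 rose by 0.32 ± 0.06 SE and Hspb3 by 0.50 ± 0.11 SE. Bag3, the partner of Hspb8 in the removal of damaged filamin, was 103 ± 5.91 FPKM in TAB and 92.7 ± 2.54 FPKM in Sham and was not called (0.14 ± 0.05 SE, adjusted p = 0.0576).

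**Figure D3:**
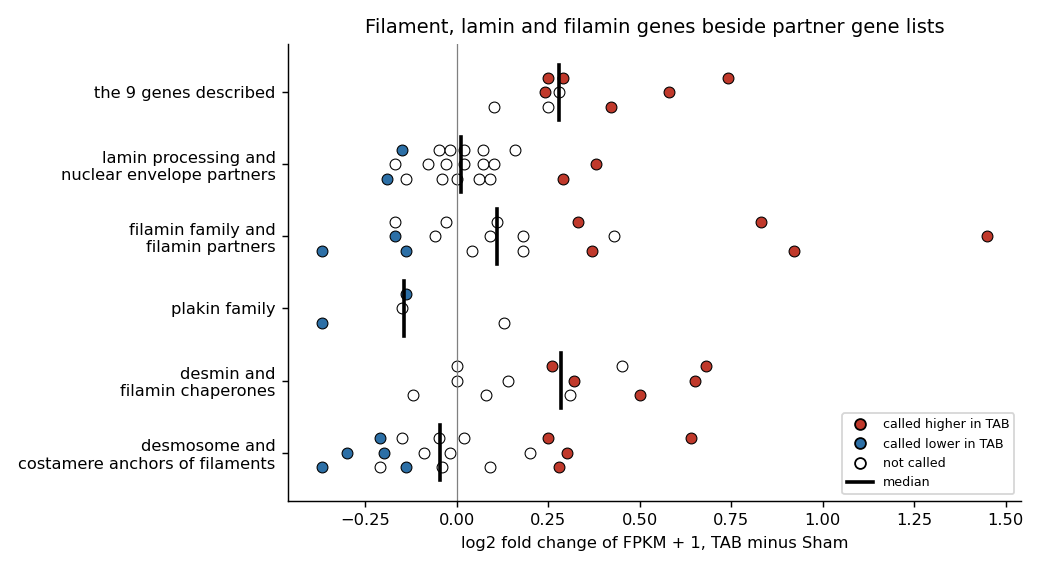
Log2 fold change of FPKM + 1, TAB minus Sham, of each tested gene in the 9 genes described and in 5 lists of partner genes, with the list median as a black bar. Red points were called higher in TAB, blue points lower and open points not called (limma adjusted p under 0.05), with medians of 0.28 for the 9 genes and 0.28 for the chaperones and between -0.15 and 0.11 for the other 4 lists.

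**Figure D4:**
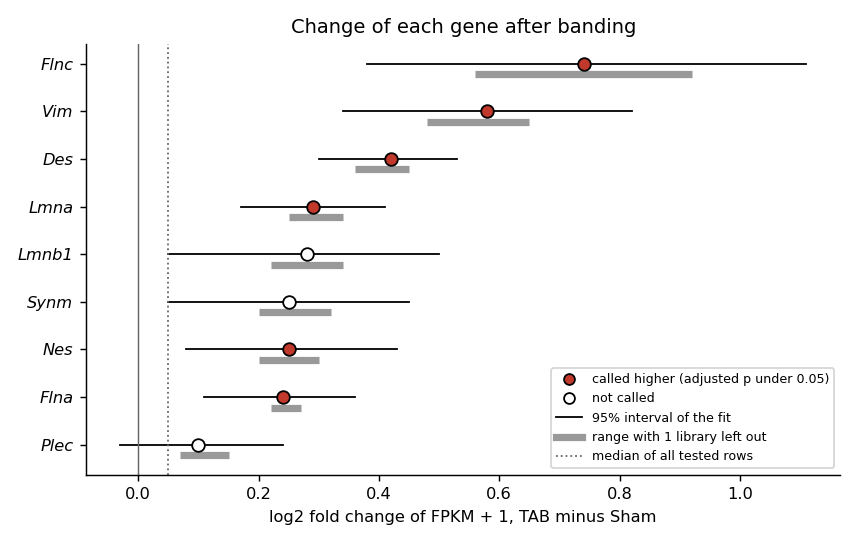
Log2 fold change of FPKM + 1, TAB minus Sham, of the 9 genes (points) with the 95% interval of the fit (black line) and the range over 7 fits that each leave out 1 library (grey bar). All points and grey bars lie above 0, the dotted line marks the median of all tested rows, 0.05, and the interval of Plec, from -0.03 to 0.24, spans 0.

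Among the libraries, TAB 1 was the highest TAB library in 5 of the 9 genes (Vim, Nes, Lmna, Lmnb1 and Plec) and the lowest in 0. TAB 2 was the lowest in 6 (Des, Synm, Vim, Lmna, Flnc and Plec). TAB 3 was the highest in Des, Synm and Flnc. In Sham no library was the highest in more than 3 genes.

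The genes whose pattern over the 7 libraries was most like that of 4 of the genes were found by the root mean square distance of log2(FPKM + 1) values, each centred on its own mean, over 11488 other genes. For Flnc the nearest was Enah, an actin regulator of the Ena/VASP family, at 0.0687 where the median gene was at 0.413. Enah was 45.6, 33.3 and 53.2 FPKM in TAB 1 to 3 and 23.7 to 24.98 FPKM in Sham. It had the same order of TAB libraries as Flnc, which a choice by distance favours. Ppm1e and Pdgfrl followed, at 0.0892 and 0.0894. For Des the nearest were Snx10, Tead2 and Clip1, at 0.0424 to 0.0436 where the median gene was at 0.221. For Vim they were Nmral1, Crip1 and Actg2 (smooth muscle gamma actin), at 0.0622 to 0.0693 against a median of 0.318. For Lmna Dtx3l and Iqgap1 were near, at 0.0279 and 0.0307 against a median of 0.172. These distances describe 7 libraries of 2 groups and share the difference between the groups.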

How the data were processed

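Per the labels' protocols, ventricular RNA of male mice (3 TAB and 4 Sham samples) was sequenced from polyA-enriched, stranded libraries. The unit is FPKM, deposited by the authors as 1 table for all samples. The submitters' processing notes name TopHat, Cufflinks and mm10. Tool versions and how libraries were scaled: not given in the sources used here. Columns were matched to samples by the column name in each description. Rows reaching an FPKM of 1 in 3 or more libraries were tested on log2(FPKM + 1) by a two-sided limma test (version 3.58.1, R 4.3.3, eBayes with trend and robust), TAB against Sham without covariates, Benjamini-Hochberg adjusted over all 11601 tested rows, at a threshold of 0.05. The test was checked on simulated data. Depth was estimated from 67 to 80 low values per library, of genes with a single GENCODE M21 transcript. Of these, 63.75% to 71.4% lay within 5% of 1 to 4 whole fragments, too few for a count model. That share belongs to the best-fitting of many depths tried, and evenly spread values would match in part too, so the depth is rough. Fragment numbers behind low values rest on the longest annotated transcript and cover counting error only. Named are the 9 genes, the 3 tested genes of each partner list with the smallest adjusted p, the 3 nearest in pattern to Des, Vim, Lmna and Flnc (some genes this rule names are not reported here), the 3 most abundant of each marker list, and all genes of a count of 5 or fewer, whereas further genes of a list were chosen after their values were seen. The genes and lists were chosen with earlier results of these data known. Alternatives were other pseudocounts, filters, scalings and eBayes settings, array weights, a replicate block, an atrial covariate and libraries left out. Upstream sequences are RefSeq's (GRCm38.p6), with windows kept for 7 of the 9 genes.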

Additional observations from a re-analysis of the deposited data

Results flagged for a closer look

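Of 91 sets of 4 Sham values examined, 8 had a library whose gap to its nearest neighbour, as a part of the range, exceeded Dixon's 95% critical value, where chance flags about 1 set in 20. Of these, 3 concern the genes described. Des was 943 FPKM in Sham 4 and 867 to 879 FPKM in the other Sham libraries. Flnc was 43.5 FPKM in Sham 2 and 49.1 to 49.8 FPKM in the others. Plec was 26.6 FPKM in Sham 3 and 23.7 to 23.9 FPKM in the others. Among the other genes, Sham 3 was high in Dsg2 (29.4 FPKM against 23.1 to 24.0) and in Fabp4 (1603 against 1093 to 1168). Nkg7, a lymphocyte marker, was 1.47 FPKM in Sham 4 and 0.131 to 0.269 in the others. Ppm1e was 2.20 FPKM in Sham 2 and 2.65 to 2.68 in the others, and Sun2 was 30.7 FPKM in Sham 3 and 32.3 to 32.5 in the others.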

How the results depend on the processing

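All 9 log2 fold changes stayed above 0 in the 160 alternative values computed, of which 141 kept their side of the threshold, 16 lost a call and 3 gained one. The calls of Des and Lmna held throughout, and 12 of the lost calls were those of Nes. The number of the 9 genes called, 6, ranged from 3 (without TAB 1) to 6 when 1 library was left out. The count of all called rows, 2360, ranged from 1440 (without TAB 1) to 2080 when 1 library was left out and was 1353 without both Sham 2 and TAB 3, fits with fewer samples. The split of 1542 higher and 818 lower became 1126 and 1190 under median-of-ratios rescaling and 1045 and 1225 under quantile normalization, under which Des had 0.37 and 0.34 and Flna 0.19 and 0.21, all called. Same-numbered TAB and Sham libraries deviated together with correlations of 0.081, 0.169 and 0.174 across genes, and differently numbered ones with -0.245 to 0.104. TAB 2 and TAB 3 each correlated best with the Sham library of their own number, and TAB 1 with Sham 3 (0.104). Whether the numbers mark pairs was not settled, and the main fit did not take them as pairs. With the replicate block 4 of the 9 genes and 1892 rows were called, Flna and Nes being lost (adjusted p = 0.0594 and 0.0616). Synm and Lmnb1 fell out of the filter at a mean FPKM of 5. Of 71 other named genes, 1092 of 1249 alternative values kept their call status, 146 lost a call, 11 gained one and 0 reversed.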
